A study of Mus musculus with 31 samples.

Results

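The comparison was between cardiac fibroblasts held in a flat layer and sampled at 5 days (2D-5days) and cardiac fibroblasts in a flat layer with no time in their label (2D). It rests on 6 of the 29 RNA sequencing libraries of the series, namely all 3 libraries labelled 2D-5days and all 3 labelled 2D. Both groups were fibroblasts taken from hearts of C57Bl/6 mice at 8-12 weeks of age, and no genetic change or drug is named for either group. The sources used here do not give how long the 2D cells had been in culture, what they grew on, or whether each library was a separate mouse or culture, so p-values measure only how far these libraries vary, which may be technical variation. The 3D-5days and 3D groups, with 3 libraries each of the same kind of cells in a three-dimensional arrangement, are used below as a second pair that carries the same 5-day label. The other 6 groups enter the estimate of the spread, and their levels are given for 8 genes at the end.

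Cardiac fibroblasts make and remodel the collagen-rich matrix of the heart. In the resting heart they divide rarely and express the transcription factor Tcf21. After injury, or when plated on a stiff flat surface, they can enter the cell cycle and build actin stress fibres that contain smooth muscle actin, a state called the myofibroblast, which transforming growth factor beta (TGF-beta) and mechanical load are known to promote.

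The libraries differed in more than the label. Totals of gene counts were 8509987 to 9588559 in 2D-5days libraries and 12289359 to 28330718 in 2D libraries. The 10 most abundant genes took 11.6% to 14.8% of the gene counts in 2D-5days libraries and 7.63% to 9.77% in 2D libraries, and the ribosomal RNA entry Rn45s, picked after its values were seen, had 23517, 32542 and 29501 CPM in 2D-5days libraries, against 10037, 10469 and 7316 CPM in 2D libraries. In the 2D group, replicate 3 stood apart from the other two. The standard deviation of the log2 difference across genes was 0.343 between 2D replicates 1 and 2, but 0.760 and 0.750 between 2D replicate 3 and these libraries. In the 2D-5days group it was 0.405 between replicates 2 and 3 and 0.705 and 0.703 between replicate 1 and these libraries, while pairs of libraries from different groups gave 0.881 to 1.18. The counts of 2D-5days replicates 2 and 3 were close to sampling noise, with a chi-square per degree of freedom of 1.45, but still differed by more than it. The same measure was 3.45 for 2D replicates 1 and 2. Reads of Xist came to 3776, 1141 and 1326 in 2D-5days libraries and to 5998, 4780 and 6954 in 2D libraries. The sum of 4 Y-linked genes was 346, 478 and 572 counts in 2D-5days libraries, against 7, 3 and 2488 counts in 2D libraries. Xist is expressed by female cells and the Y-linked genes by male cells. The 5-day label, the sequencing depth and the set of mice cannot be told apart in these 6 libraries. For this reason results are also given with 2D replicate 3 as the only 2D library and with 2D replicates 1 and 2 only. With 2D replicate 3 alone, the spread comes from the other groups. The p-values and calls of that fit do not measure variation within 2D.

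Markers of fibroblasts were high in all 6 libraries. The summed level of 12 fibroblast markers was 39406, 65432 and 65542 CPM (counts scaled to a common library size with TMM factors) in 2D-5days libraries and 40612, 39082 and 19208 CPM in 2D libraries. The 21 macrophage markers summed to 3815, 891 and 890.3 CPM in 2D-5days libraries, against 1620.4, 1709 and 1897 CPM in 2D libraries, with replicate 1 of 2D-5days the highest of the 6 and none of the 21 at 0 in a group. Sums for 16 endothelial markers were 549 to 768 CPM in 2D-5days and 529 to 536 CPM in 2D, and those for 12 pericyte and smooth muscle markers were 367 to 443 CPM in 2D-5days and 115 to 207 CPM in 2D. Cardiomyocyte markers (17 genes) summed to 409 to 429 CPM in 2D-5days and 531 to 586 CPM in 2D. Single genes gave much of these sums. Eng had 497 to 723 CPM in 2D-5days and 461 to 483 CPM in 2D. Notch3 had 338 to 417 and 45.6 to 106 CPM, and Atp2a2 381 to 397 and 519 to 559 CPM, in the same order. Called members of these lists went both ways, with 1 higher and 1 lower of 15 endothelial markers tested. For pericyte and smooth muscle markers it was 1 and 2 of 10, and for cardiomyocyte markers 3 and 2 of 10. Of 12 fibroblast markers, 4 were called higher and 1 lower. Of all genes tested, 22.3% were called in each direction. Epicardial and mesothelial markers (14 genes) summed to 139 to 144 CPM in 2D-5days, where Krt8, Krt18 and Krt14 were at 0, and 217 to 225 CPM in 2D. Tbx18 gave much of these sums, with a mean of 62.6 CPM in 2D-5days and 107 CPM in 2D. Of the 11 epicardial and mesothelial markers tested, 0 were called higher and 3 lower. Lymphocyte, erythroid and Schwann cell markers stayed below 10 CPM in sum in both groups. In bulk RNA, fewer cells of a type and less RNA per cell cannot be told apart.

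Of 14036 genes tested, 3134 rose and 3132 fell in 2D-5days against 2D at an adjusted p under 0.05, which is 22.3% of the genes in either direction and 44.6% in all. A change of at least 2-fold was reached by 1233 of the genes that rose (8.78% of all tested) and 1093 of the genes that fell (7.79%). The values of the groups did not overlap for 7041 genes, or 50.2%, and 40.6% of the genes were both called and without overlap. With 2D replicates 1 and 2 only, 40.8% of 14027 genes were called (20.7% higher, 20.2% lower), and with 2D replicate 3 as the only 2D library 33.1% of 14404 genes were (16.9% higher, 16.2% lower). Of the 5722 genes called with replicates 1 and 2 that were also tested against replicate 3, 94.2% changed in the same direction there. Both comparisons use the same 2D-5days libraries, so part of this agreement is built in. Of 6257 genes called with all 3 libraries and tested each way, 3460, or 55.3%, were called with the same sign both with replicates 1 and 2 and against replicate 3. The plot of list members sets out the changes of 30 groups of genes with known roles. The median log2 change over all genes tested was -0.02. List counts of the flat pair below are to be read against 22.3% of all genes called in each direction. Below, levels are TMM-scaled CPM of each library in replicate order, and a value with ± is a log2 fold change (2D-5days over 2D) with its standard error (SE).

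**Figure D1:**
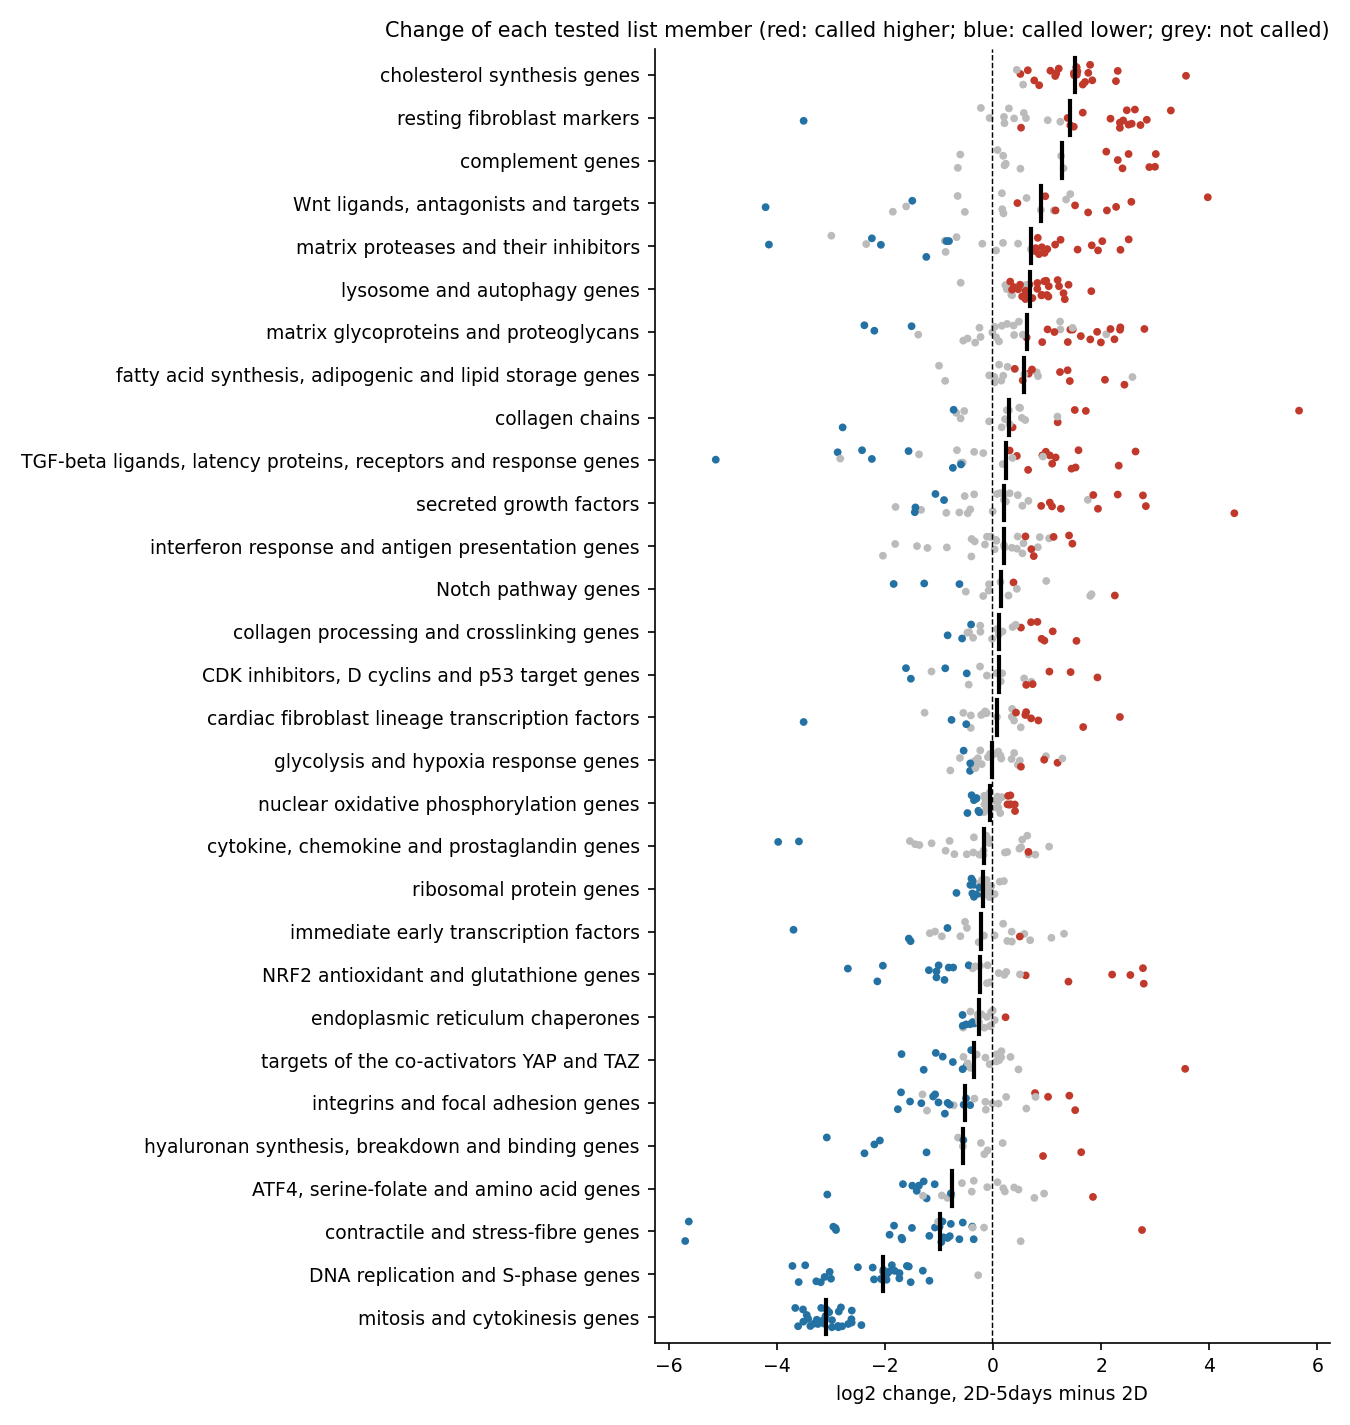
Log2 change of each tested gene (x axis, 2D-5days minus 2D) on 30 gene lists (y axis, ordered by median), with red points for genes called higher, blue for called lower, grey for not called, black bars for list medians and a dashed line for the median of all genes. Cholesterol synthesis genes lie highest, with a median of 1.52, and mitosis genes lowest, with a median of -3.09.

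The largest changes were ranked among called genes without overlap that averaged a log2 CPM of 3 or more. Among the 12 largest rises were several secreted matrix and signalling proteins. Scg2, which encodes the secretory granule protein secretogranin II, had 114, 304 and 287 CPM in 2D-5days libraries, against 3.08, 2.84 and 6.92 CPM in 2D libraries. Its 2D-5days values all lay far above the 2D values, and the log2 change was 5.71 ± 0.54 (SE; adjusted p = 8.89e-08). Matn4, which encodes the matrix protein matrilin-4, had 93.98, 155 and 159 CPM in 2D-5days libraries, against 3.16, 4.65 and 2.64 CPM in 2D libraries, a log2 change of 5.31 ± 0.28 (adjusted p = 4.64e-11). The other matrix genes in this set were Adamtsl2, an ADAMTS-like protein that binds microfibrils (3.93), Abi3bp (3.88), Fbln7, a fibulin (3.87), and Podn, a small leucine-rich proteoglycan (3.65), with changes on the log2 scale. Igfbp3, which binds insulin-like growth factors, had 104, 212 and 219 CPM in 2D-5days libraries, against 16.5, 15.3 and 13.8 CPM in 2D libraries. Ccbe1, a secreted protein needed for lymphatic growth, rose by 3.33 on the log2 scale. Metabolic genes in the set were Fmo2, a monooxygenase, Tm7sf2, a sterol reductase, Gstt1, a glutathione transferase, and G0s2, an inhibitor of fat breakdown, with log2 changes of 3.67, 3.57, 3.45 and 3.37. For Scg2, Adamtsl2, G0s2 and Igfbp3 replicate 1 of 2D-5days was the lowest of its group, and still above every 2D library.

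Under the same level cutoff, most of the 12 largest falls were cell cycle genes, and the first of them was a matrix gene. Npnt, which encodes nephronectin, a ligand of integrin α8β1, had 5.56, 3.599 and 2.83 CPM in 2D-5days libraries, against 158, 162 and 167 CPM in 2D libraries, with a log2 change of -5.34 ± 0.45 (adjusted p = 1.91e-08). The 3 2D libraries agreed closely, and the highest 2D-5days value was far below them. Ptgs2, the inducible cyclooxygenase of prostaglandin synthesis, had 15.6, 3.599 and 3.504 CPM in 2D-5days libraries, against 91.2, 98.7 and 167 CPM in 2D libraries, and Nes, the intermediate filament gene nestin, had 37.5, 14.8 and 15.6 CPM in 2D-5days libraries, against 144, 166 and 684 CPM in 2D libraries. Both were highest in 2D replicate 3, and so was Tll1, a tolloid-like metalloprotease that cleaves procollagen, with 6.27, 2.31 and 2.5996 CPM in 2D-5days libraries, against 14.8, 16.4 and 153 CPM in 2D libraries. Without that library the log2 change of Tll1 was -2.06 (adjusted p = 0.043), against -4.05 with all libraries, and DESeq2 gave it no adjusted p. For Ptgs2 and Nes the log2 changes with 2D replicates 1 and 2 only were -3.64 and -2.78, against -3.97 and -3.87 with all libraries. The kinetochore gene Casc5 (known also as Knl1), the transcriptional repressor E2f7, Aspm, Kif14, Ect2, Anln, Cep55 and Ccna2 had log2 changes between -3.96 and -3.51.

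**Figure D2:**
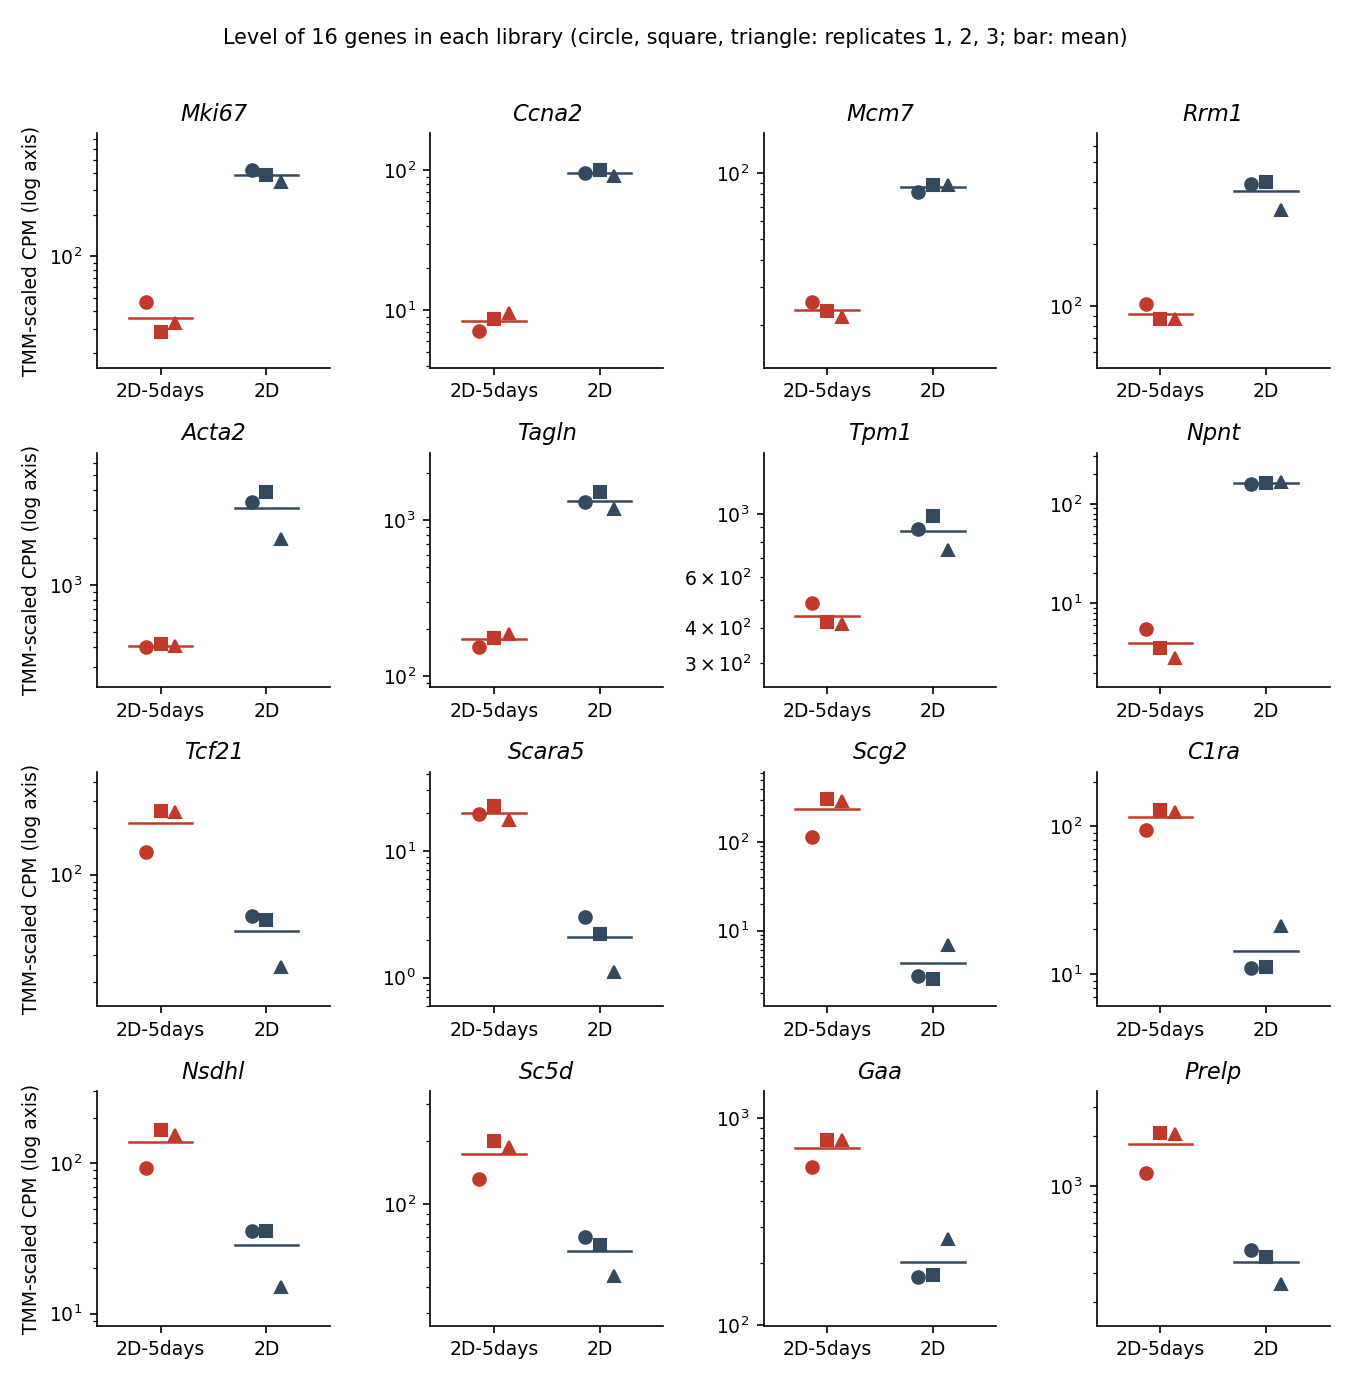
Level of 16 genes in TMM-scaled CPM on a log axis, with 2D-5days libraries in red on the left of each panel and 2D libraries in blue on the right (circle, square and triangle for replicates 1, 2 and 3; bar, mean). The cell cycle, actin and nephronectin genes of the upper 2 rows lie lower in 2D-5days, and the genes of the lower 2 rows lie higher, with no overlap between groups in any panel.

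Genes of the dividing cell were lower as a block. All 28 tested genes of mitosis and cytokinesis fell, against 22.3% of all genes tested, with a median log2 change of -3.09 and a range of -3.66 to -2.43, and 27 of 28 genes of DNA replication and S phase fell, with a median of -2.03. Both counts were the same against 2D replicate 3 alone, with 2D replicates 1 and 2 only, and with any other library left out. Mki67, the Ki-67 proliferation antigen, had 46.3, 28.5 and 33.004 CPM in 2D-5days libraries, against 423, 387 and 344 CPM in 2D libraries, a log2 change of -3.42 ± 0.74 (adjusted p = 7.48e-04). Ccna2, the cyclin of S phase and entry into mitosis, had 7.09, 8.61 and 9.49 CPM in 2D-5days libraries, against 96.5, 101 and 91.2 CPM in 2D libraries (-3.51 ± 0.42, adjusted p = 1.15e-06). In both genes every 2D library held several times the level of every 2D-5days library. Hmmr, a spindle protein, fell by 3.07 and Kif20a, a kinesin of cytokinesis, by 2.85 on the log2 scale. Among replication genes, Rrm1, the large subunit of ribonucleotide reductase, had 102, 87.01 and 86.7 CPM in 2D-5days libraries, against 389, 399 and 293 CPM in 2D libraries. Tyms, thymidylate synthase, had 13.003, 14.9 and 14.02 CPM in 2D-5days libraries, against 46.3, 48.7 and 28.9 CPM in 2D libraries, with 2D replicate 3 the lowest of its group. Mcm7, a subunit of the replicative helicase, had 25.7, 23.3 and 21.9 CPM in 2D-5days libraries, against 82.2, 88.6 and 88.4 CPM in 2D libraries, and Prim1, the primase subunit, had 2.36, 2.06 and 1.36 CPM in 2D-5days libraries, against 18.97, 19.9 and 16.9 CPM in 2D libraries. The log2 changes of these genes were -1.97 ± 0.24, -1.56 ± 0.20, -1.87 ± 0.25 and -3.27 ± 0.48 in this order.

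The promoters of cell cycle genes carry known sequence elements, and those of 2 genes on these lists are shown because they hold them. Cdc20, the activator of the anaphase-promoting complex, had 12.2, 17.2 and 16.3 CPM in 2D-5days libraries, against 103, 114 and 75.9 CPM in 2D libraries (log2 change -2.68 ± 0.29, adjusted p = 3.98e-07). Mcm5, another subunit of the replicative helicase, had 11.8, 10.4 and 9.72 CPM in 2D-5days libraries, against 82.02, 92.8 and 84.6 CPM in 2D libraries (-3.02 ± 0.49, adjusted p = 3.79e-05). The sequences are the 250 bases before the annotated start, from RefSeq on GRCm38.p6, written 5′ to 3′ on the strand of the gene. Capitals mark, in Cdc20, the letters of the cell cycle homology region (TTTGAA) and of the CCAAT box, and in Mcm5 a pair of E2F sites that overlap on opposite strands.
Cdc20, chr4:118437344-118437593, minus strand: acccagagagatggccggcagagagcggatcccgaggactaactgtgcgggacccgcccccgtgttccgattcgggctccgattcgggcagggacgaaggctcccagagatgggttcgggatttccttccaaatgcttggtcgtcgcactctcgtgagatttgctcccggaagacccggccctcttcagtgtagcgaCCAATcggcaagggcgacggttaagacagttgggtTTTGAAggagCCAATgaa
Mcm5, chr8:75109259-75109508, plus strand: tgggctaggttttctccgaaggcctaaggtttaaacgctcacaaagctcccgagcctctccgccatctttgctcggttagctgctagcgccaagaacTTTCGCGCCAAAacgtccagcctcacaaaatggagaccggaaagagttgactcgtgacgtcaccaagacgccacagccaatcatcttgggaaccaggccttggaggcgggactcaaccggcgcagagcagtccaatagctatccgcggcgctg
In Cdc20 the TTTGAA letters ran from position -18 to -13 and the CCAAT letters from -53 to -49 and from -8 to -4, and in Mcm5 the E2F letters ran from -153 to -142 relative to the start. Over all tested genes, 11078 had such a window. The TTTGAA letters, on either strand, occurred in 12.7% of these windows and in 9 of the 25 windows available for mitosis genes (36%). CCAAT, on either strand, occurred in 40.1% of all windows, in 21 of 25 (84%) for mitosis genes and in 15 of 22 (68.2%) for replication genes. The E2F search used TTTCCCGC, TTTGGCGC, TTTCGCGC and TTTGCCGC on either strand, and these occurred in 3.75% of all windows and in 7 of 22 (31.8%) for replication genes. A match of letters is a description of the window and was not tested for binding.

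Inhibitors of cyclin-dependent kinases, D cyclins and p53 targets were called at about the share of all genes, with 5 of 18 higher and 4 lower against 22.3% of all genes in each direction. Without 2D-5days replicate 1, 3 were higher. Cdkn2c, which encodes the p18 inhibitor, had 19.03, 21.1 and 22.2 CPM in 2D-5days libraries, against 40.7, 38.7 and 35.5 CPM in 2D libraries (-0.88 ± 0.13). Cdkn1a, which encodes p21, had 229, 265 and 253 CPM in 2D-5days libraries, against 301, 318 and 427 CPM in 2D libraries (-0.49 ± 0.12, adjusted p = 0.0023), and its log2 change was -0.31 with 2D replicates 1 and 2 only. Sesn1, a stress-responsive p53 target, had 27.2, 25.4 and 27.5 CPM in 2D-5days libraries, against 13.7, 13.3 and 11.9 CPM in 2D libraries (1.04 ± 0.24). Cdkn1c, which encodes p57, was at 2.48, 2.699 and 2.26 CPM in 2D-5days libraries, against 0.333, 0.315 and 1.11 CPM in 2D libraries, with a log2 change of 1.93 ± 0.42. Its change was 2.904 with 2D replicates 1 and 2 and 1.19 against 2D replicate 3, where it was not called (adjusted p = 0.064).

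Contractile and stress-fibre genes were mostly lower. Of 28 tested, 23 fell and 1 rose, with a median log2 change of -0.97. Acta2, smooth muscle actin and the usual marker of the myofibroblast, had 399, 419 and 409.9 CPM in 2D-5days libraries, against 3368, 3876 and 1955 CPM in 2D libraries. The 2D-5days libraries agreed within a few percent, while 2D replicate 3 was the lowest of its group, and the log2 change was -2.904 ± 0.41 (adjusted p = 9.37e-06). Tagln, the actin-bundling protein transgelin, had 153, 176 and 187 CPM in 2D-5days libraries, against 1302, 1508 and 1185 CPM in 2D libraries (-2.95 ± 0.33, adjusted p = 5.95e-07). The tropomyosin genes Tpm1 and Tpm4 and the crosslinker Actn1, α-actinin, fell by 0.99, 0.92 and 1.18 on the log2 scale. Cnn1, the smooth muscle calponin, had 0.355, 1.41 and 0.226 CPM in 2D-5days libraries, against 40.8, 57.02 and 4.14 CPM in 2D libraries, so that the 2D libraries themselves ranged widely. Its log2 change was -5.69 ± 0.78, and -2.63 against 2D replicate 3 alone. This fall was larger than that of Npnt, but the mean level of Cnn1 was below the cutoff for the largest falls. The 1 gene of the list that rose was Mylk, myosin light chain kinase, named for that reason after its values were seen, with 55.6, 49.6 and 45.7 CPM in 2D-5days libraries, against 10.8, 9.701 and 2.35 CPM in 2D libraries (2.76 ± 0.41, adjusted p = 1.57e-05). Against 2D replicate 3 alone 18 of the list fell and 2 rose. Vim, the intermediate filament protein vimentin of mesenchymal cells, fell by 0.74 on the log2 scale (adjusted p = 0.013) and was not called against 2D replicate 3 alone (adjusted p = 0.082). Members such as Actg1 share long stretches of sequence with other actin genes, and the split of their reads is uncertain.

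A CArG box, the element bound by serum response factor, is known in the promoters of several of these genes. Its letters occurred in 1.44% of the 11078 windows of all tested genes and in 4 of the 25 windows available for contractile genes (16%), both strands searched, those of Myl9, Cnn2, Actg1 and Vcl. The window of Acta2 had no match to the strict form searched. Myl9, the regulatory light chain of myosin, is shown because it holds a match, in capitals, from position -161 to -152.
Myl9, chr2:156775214-156775463, plus strand: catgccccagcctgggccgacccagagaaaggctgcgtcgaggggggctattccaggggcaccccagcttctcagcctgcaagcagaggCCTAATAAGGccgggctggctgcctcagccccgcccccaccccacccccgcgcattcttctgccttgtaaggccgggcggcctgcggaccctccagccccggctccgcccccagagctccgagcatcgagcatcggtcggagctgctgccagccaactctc
Myl9 had 52.2, 57.7 and 62.4 CPM in 2D-5days libraries, against 256, 287 and 106 CPM in 2D libraries. The log2 change was -1.91 ± 0.36 (adjusted p = 2.05e-04), but 2D replicate 3 was well below the other 2D libraries, and against it alone the change was -0.85 and not called (adjusted p = 0.12).

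Integrin and focal adhesion genes fell more often than they rose, with 13 of 28 lower and 4 higher and a median of -0.52, and 2 higher without 2D replicate 3. Itga5, the α5 chain of the fibronectin receptor, had 159, 122 and 148 CPM in 2D-5days libraries, against 395, 408 and 442 CPM in 2D libraries (-1.53 ± 0.13, adjusted p = 1.49e-08), with little spread in either group. Fermt2, the integrin activator kindlin-2, and Ptk2, focal adhesion kinase, fell by 1.07 and 0.84 on the log2 scale. The β5 integrin chain went the other way, and Itgb5 had 1839.8, 2299 and 2289 CPM in 2D-5days libraries, against 867, 829 and 545 CPM in 2D libraries (1.52 ± 0.18, adjusted p = 1.08e-06). The list of targets of YAP and TAZ, co-activators that respond to mechanical load, had 22 tested members, of which 8 fell and 1 rose, with a median of -0.35, but 4 fell without replicate 2 or 3 of 2D-5days and 3 when the most alike libraries were summed. Against 2D replicate 3 alone 4 rose. Axl, a receptor tyrosine kinase on this list, had 625, 645 and 630.4 CPM in 2D-5days libraries, against 1409.6, 1459.9 and 1752 CPM in 2D libraries (-1.28 ± 0.12, adjusted p = 7.30e-08), and Dlc1, a regulator of the actin cytoskeleton, fell by 1.06 on the log2 scale. Ctgf (Ccn2), the best known target, had 2388, 1586 and 1540.2 CPM in 2D-5days libraries, against 2891, 3111 and 4499.5 CPM in 2D libraries (-0.93 ± 0.29, adjusted p = 0.013), and was not called with 2D replicate 3 left out (-0.71, adjusted p = 0.078) or with replicate 2 or 3 of 2D-5days left out (-0.80 and -0.78). The 1 gene of the list that rose was Igfbp3, given above.

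Genes that mark the resting fibroblast were mostly higher. Of 27 tested, 16 rose and 1 fell, with a median log2 change of 1.43. Tcf21, the transcription factor of the cardiac fibroblast lineage, had 139, 259 and 256 CPM in 2D-5days libraries, against 53.5, 50.7 and 24.9 CPM in 2D libraries (2.35 ± 0.33, adjusted p = 7.66e-06). Replicate 1 of 2D-5days was the lowest of its group and 2D replicate 3 the lowest of all, and the groups did not overlap. Scara5, a ferritin receptor, had 19.6, 22.5 and 17.4 CPM in 2D-5days libraries, against 2.99, 2.21 and 1.11 CPM in 2D libraries (3.29 ± 0.38, adjusted p = 6.47e-07). Cygb, cytoglobin, had 355, 481 and 483 CPM in 2D-5days libraries, against 82.7, 77.3 and 54.3 CPM in 2D libraries (2.62 ± 0.36), and the lipid transporter genes Abca8a and Abca8b rose by 2.84 and 1.66 on the log2 scale. Pdgfra, the receptor that marks fibroblasts in many tissues, had 421, 459 and 444 CPM in 2D-5days libraries, against 237, 221 and 465 CPM in 2D libraries. Here the groups overlapped, since 2D replicate 3 was as high as the 2D-5days libraries. Pdgfrb, its relative, which mural cells also express, had 1081, 1246 and 1213 CPM in 2D-5days libraries, against 624, 568 and 266 CPM in 2D libraries (1.28 ± 0.27, adjusted p = 5.07e-04). The call for Pdgfra (0.52 ± 0.20, adjusted p = 0.039) was lost with any 1 library left out except 2D replicate 3, without which the change was 0.95 (adjusted p = 6.35e-05). The 1 member that fell was Meox1, a homeobox factor that is induced in activated fibroblasts, named after its values were seen, with 0.355, 0.386 and 0.339 CPM in 2D-5days libraries, against 1.497, 1.42 and 9.13 CPM in 2D libraries, a log2 change of -3.502 ± 0.80, and of -1.997 with 2D replicates 1 and 2. Against 2D replicate 3 alone 9 of the resting markers rose, and 10 did when the most alike libraries were summed.

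Lineage transcription factors of the cardiac fibroblast did not move as one, with 7 of 23 higher, 3 lower and a median of 0.07. The share of all genes was 22.3% in each direction. The number higher was 4 without 2D replicate 3 or without 2D-5days replicate 1. Foxo1, a forkhead factor, had 34.2, 32.8 and 31.9 CPM in 2D-5days libraries, against 19.8, 17.98 and 22.7 CPM in 2D libraries (0.70 ± 0.12). Prrx2, a paired-related homeobox gene, had 10.6, 10.8 and 9.95 CPM in 2D-5days libraries, against 4.41, 4.57 and 1.18 CPM in 2D libraries (1.67 ± 0.34). Tbx18, a T-box factor of the epicardium and its derivatives, had 73.9, 58.99 and 54.8 CPM in 2D-5days libraries, against 121, 113 and 86.2 CPM in 2D libraries (-0.77 ± 0.15, adjusted p = 3.70e-04), with 2D replicate 3 again nearest to the 2D-5days libraries (-0.43 against it alone, adjusted p = 0.1).

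Collagen chains rose at about the share of all genes. Of 21 tested, 5 rose and 2 fell, against 22.3% of all genes in each direction, with a median of 0.30, and 3 rose without 2D replicate 3 or without replicate 2 or 3 of 2D-5days. With any 1 library left out except 2D replicate 2 or 3, 1 fell. Col1a1, the main chain of type I collagen, had 14332, 21532 and 21902 CPM in 2D-5days libraries, against 16863, 15989.5 and 5336 CPM in 2D libraries. The groups overlapped and the log2 change of 0.60 ± 0.33 was not called (adjusted p = 0.14), while against 2D replicate 3 alone, which was about 3 times lower than the other 2D libraries, it was 1.89 (adjusted p = 0.0017). Col3a1, type III collagen, had 12114, 26187 and 26000.4 CPM in 2D-5days libraries, against 8705, 8219.6 and 2631 CPM in 2D libraries (1.72 ± 0.63, adjusted p = 0.031). This call was lost without 2D replicate 3 (1.34, adjusted p = 0.13) and without replicate 2 or 3 of 2D-5days (1.58 and 1.59). Col6a1, a chain of the beaded filaments around cells, had 1192, 1801 and 1824 CPM in 2D-5days libraries, against 665, 642 and 382 CPM in 2D libraries (1.51 ± 0.20, adjusted p = 3.41e-06). Col8a2, a short-chain collagen, was nearly absent in 2D, with 12.8, 29.3 and 29.7 CPM in 2D-5days libraries, against 0.499, 0.7098 and 0.285 CPM in 2D libraries (5.66 ± 0.55, adjusted p = 9.92e-08). Col15a1, a basement membrane collagen, moved the other way, with 13.4, 13.2 and 15.3 CPM in 2D-5days libraries, against 76.7, 66.2 and 144 CPM in 2D libraries (-2.78 ± 0.29, adjusted p = 2.45e-07). Against 2D replicate 3 alone 11 chains rose and 1 fell (median 1.14).

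Of 22 genes for collagen processing and crosslinking, 7 rose and 3 fell, against 22.3% of all genes in each direction. Loxl1, a lysyl oxidase that acts on elastin, had 1409, 1906 and 1904 CPM in 2D-5days libraries, against 805, 798 and 823 CPM in 2D libraries (1.105 ± 0.17). Adamts2, which removes the amino-terminal propeptide of procollagen, had 1109.5, 1840.0 and 1777 CPM in 2D-5days libraries, against 646, 585 and 390.5 CPM in 2D libraries (1.54 ± 0.24), and Pcolce, which enhances removal of the carboxy-terminal propeptide, had 648, 1097 and 1109 CPM in 2D-5days libraries, against 511, 524 and 496 CPM in 2D libraries (0.90 ± 0.16). Crtap, part of the prolyl 3-hydroxylation complex, rose by 0.82 on the log2 scale. In these 4 genes replicate 1 of 2D-5days was the lowest of its group.

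Among 39 matrix glycoproteins and proteoglycans, 16 rose and 3 fell, with a median of 0.62. The small leucine-rich proteoglycans Prelp and Fmod were among those that rose. Prelp had 1199, 2093 and 2055 CPM in 2D-5days libraries, against 413, 374 and 258 CPM in 2D libraries (2.36 ± 0.31, adjusted p = 3.50e-06), and Fmod, fibromodulin, had 164, 346 and 338 CPM in 2D-5days libraries, against 77.9, 75.2 and 69.99 CPM in 2D libraries (1.93 ± 0.31, adjusted p = 3.33e-05). Tnc, tenascin-C, a glycoprotein of developing and injured tissue, had 144, 176 and 186 CPM in 2D-5days libraries, against 863, 854 and 918 CPM in 2D libraries (-2.38 ± 0.37, adjusted p = 2.71e-05). Vcan, the large proteoglycan versican, had 59.1, 47.2 and 47.1 CPM in 2D-5days libraries, against 259, 227 and 217 CPM in 2D libraries (-2.19 ± 0.25, adjusted p = 7.56e-07). For both genes every 2D library lay far above every 2D-5days library. Fn1, fibronectin, was among the most abundant genes in all 6 libraries, with 24182, 23486 and 22974 CPM in 2D-5days libraries, against 22454, 20127 and 16368 CPM in 2D libraries, and was not called (0.26 ± 0.19, adjusted p = 0.29). Postn, periostin, had 569.9, 689 and 676 CPM in 2D-5days libraries, against 975, 888 and 407 CPM in 2D libraries. Its groups overlapped, and the log2 change of -0.23 ± 0.28 was not called (adjusted p = 0.54) and had the opposite sign against 2D replicate 3 alone (0.70).

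Matrix proteases and their inhibitors split, with 15 of 31 higher and 6 lower, and 9 higher without 2D-5days replicate 3. Mmp2, gelatinase A, had 708, 1124 and 1098 CPM in 2D-5days libraries, against 227, 224 and 310.2 CPM in 2D libraries (1.94 ± 0.24, adjusted p = 1.40e-06). Mmp14, the membrane-bound activator of Mmp2, had 938, 981 and 1024 CPM in 2D-5days libraries, against 553, 507 and 597 CPM in 2D libraries (0.83 ± 0.13), and Mmp11, stromelysin-3, had 124, 147 and 140.2 CPM in 2D-5days libraries, against 33.4, 33.6 and 33.96 CPM in 2D libraries (2.02 ± 0.16, adjusted p = 8.21e-09). Among inhibitors, Timp1, the inducible inhibitor of metalloproteinases, had 177, 270.3 and 264 CPM in 2D-5days libraries, against 574, 629 and 1789 CPM in 2D libraries (-2.07 ± 0.42, adjusted p = 3.89e-04), with 2D replicate 3 about 3 times above the other 2D libraries and a change of -1.34 without it. Among 14 hyaluronan genes, 6 fell and 2 rose, and 3 fell without replicate 2 or 3 of 2D-5days or in a fit of the compared groups only. Those that fell include Hmmr and Vcan, which are also on the mitosis and matrix lists and are given above. Cd44, the hyaluronan receptor, had 128, 77.1 and 71.8 CPM in 2D-5days libraries, against 268, 286 and 627 CPM in 2D libraries (-2.09 ± 0.33), and Hyal1, a lysosomal hyaluronidase, had 11.9, 17.9 and 12.5 CPM in 2D-5days libraries, against 4.33, 4.42 and 4.85 CPM in 2D libraries (1.63 ± 0.26).

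Of 30 TGF-beta family genes, 13 were higher and 7 lower, with 4 lower in a fit of the compared groups only. Those given here belong to the bone morphogenetic protein (BMP) branch. The ligand Bmp4 had 91.5, 134 and 140.3 CPM in 2D-5days libraries, against 22.3, 23.2 and 13.7 CPM in 2D libraries (2.64 ± 0.30, adjusted p = 7.61e-07). Smad6, the inhibitory Smad that BMP signalling induces, had 279.7, 387 and 386 CPM in 2D-5days libraries, against 83.3, 73.9 and 53.01 CPM in 2D libraries (2.33 ± 0.20, adjusted p = 1.68e-08), and Id3, a BMP target, had 454, 681 and 698 CPM in 2D-5days libraries, against 246, 261 and 106 CPM in 2D libraries (1.58 ± 0.22). Ctgf, given above, is a classical target of the TGF-beta branch. Of 23 Wnt ligands, antagonists and targets, 9 rose and 2 fell, with a median of 0.89. The number higher was 5 without 2D-5days replicate 2 and 4 in a fit of the compared groups only, and 1 was lower without 2D replicate 3. Sfrp1, a secreted Wnt antagonist, had 1641, 4073 and 3992 CPM in 2D-5days libraries, against 661, 613 and 374 CPM in 2D libraries (2.56 ± 0.40, adjusted p = 2.64e-05). Nkd1, a target and inhibitor of the pathway, had 9.46, 19.4 and 18.99 CPM in 2D-5days libraries, against 3.58, 4.34 and 2.105 CPM in 2D libraries (2.28 ± 0.38). Dkk3, a member of the Dickkopf family, had 18.1, 30.7 and 26.7 CPM in 2D-5days libraries, against 4.08, 3.94 and 13.3 CPM in 2D libraries (1.76 ± 0.34), with 2D replicate 3 above the other 2D libraries and a change of 2.65 without it.

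Secreted growth factors numbered 33, with 10 higher and 4 lower, against 22.3% of all genes in each direction. The number lower was 1 without 2D replicate 3 or without replicate 2 or 3 of 2D-5days, and against 2D replicate 3 alone 8 were higher and 8 lower (median -0.08). Cxcl12, the chemokine that binds Cxcr4, had 940.5, 1042 and 1019.8 CPM in 2D-5days libraries, against 236, 242 and 304 CPM in 2D libraries (1.94 ± 0.29, adjusted p = 1.78e-05). Vegfb, a ligand of the receptor Flt1, had 86.6, 90.4 and 89.9 CPM in 2D-5days libraries, against 18.6, 18.4 and 36.1 CPM in 2D libraries (1.86 ± 0.22, adjusted p = 9.55e-07), and Fgf18, a fibroblast growth factor, had 16.2, 21.7 and 20.3 CPM in 2D-5days libraries, against 3.33, 3.47 and 1.85 CPM in 2D libraries (2.77 ± 0.34). Of 15 Notch pathway genes, 2 rose and 3 fell, with 5 higher against 2D replicate 3 alone and 1 higher without 2D replicate 2 or 3 or without 2D-5days replicate 1. The receptor Notch3, which is known for its role in mural cells, had 338, 417 and 403 CPM in 2D-5days libraries, against 106, 91.9 and 45.6 CPM in 2D libraries (2.25 ± 0.22, adjusted p = 1.06e-07), and the receptor Notch4 had 8.04, 11.3 and 13.7 CPM in 2D-5days libraries, against 42.4, 40.4 and 35.5 CPM in 2D libraries (-1.84 ± 0.38). Of the 10 pericyte and smooth muscle markers tested, Notch3 alone was called higher. Cspg4, the NG2 proteoglycan and another of them, fell, with 1.77, 0.643 and 1.47 CPM in 2D-5days libraries, against 9.82, 7.49 and 30.4 CPM in 2D libraries (-3.62 ± 0.61), as did Cnn1, given above.

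Complement genes rose in 7 of 16 cases, with a median of 1.28. C1ra and C1s1 encode the proteases of the first complement component. C1ra had 94.7, 129 and 124 CPM in 2D-5days libraries, against 10.9, 11.1 and 20.97 CPM in 2D libraries (2.996 ± 0.53, adjusted p = 9.58e-05) and C1s1 had 53.8, 89.8 and 84.9 CPM in 2D-5days libraries, against 7.32, 6.78 and 13.7 CPM in 2D libraries (3.01 ± 0.65, adjusted p = 7.60e-04). In both genes 2D replicate 3 was the highest 2D library, and C1s1 was not called against it alone (2.51, adjusted p = 0.067). C2, a protease of the same pathway, had 2.601, 8.48 and 7.46 CPM in 2D-5days libraries, against 0.666, 0.789 and 0.963 CPM in 2D libraries (2.89 ± 0.50, adjusted p = 7.60e-05). Against 2D replicate 3 alone 3 complement genes were called higher. Interferon response and antigen presentation genes gave a count that depended on the 2D libraries. Of all genes, 22.3% rose with all 3 2D libraries and 20.7% with replicates 1 and 2 only. With all 3 libraries 6 of 31 rose (median 0.20), with replicates 1 and 2 only 15 rose (median 1.09), and against replicate 3 alone 5 fell (median -0.76). Tap1, a peptide transporter of antigen presentation, had 33.1, 40.9 and 38.2 CPM in 2D-5days libraries, against 17.1, 18.1 and 32.96 CPM in 2D libraries (0.71 ± 0.22, adjusted p = 0.011), and was not called against 2D replicate 3 alone (0.22, adjusted p = 0.56) or without 2D replicate 1 or 2 (0.54 and 0.57). Cytokine, chemokine and prostaglandin genes were called in 1 case upward and 2 downward of 28, counts of 0 to 2 upward and 1 to 2 downward with 1 library left out, and Ptgs2 above was one of those that fell.

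Cholesterol synthesis genes rose together. Of 24 tested, 22 rose, with a median log2 change of 1.52 and a range of 0.44 to 3.57. Nsdhl, a sterol dehydrogenase, had 92.4, 167 and 154 CPM in 2D-5days libraries, against 35.6, 35.4 and 15.02 CPM in 2D libraries (2.27 ± 0.27, adjusted p = 1.02e-06). Sc5d, a sterol desaturase of the late pathway, had 132, 201 and 187 CPM in 2D-5days libraries, against 69.5, 64.1 and 45.2 CPM in 2D libraries (1.54 ± 0.16, adjusted p = 2.23e-07), and Mvd, mevalonate decarboxylase, had 37.5, 106 and 94.8 CPM in 2D-5days libraries, against 20.5, 20.03 and 8.06 CPM in 2D libraries (2.31 ± 0.29, adjusted p = 2.50e-06). In each of these genes 2D replicate 3 was the lowest 2D library and replicate 1 the lowest 2D-5days library. All 24 genes rose against 2D replicate 3 alone (median 2.47), and 15 rose with 2D replicates 1 and 2 only (median 1.19). These genes are known to be driven by the SREBP transcription factors. Hmgcs1, HMG-CoA synthase, is shown as the 1 gene of the 16 with an available window that held the letters TCACNCCAC of a sterol element, on either strand, which occurred in 1.26% of all 11078 windows. CCAAT was found in all 16 windows, on either strand, against 40.1% of all windows. Capitals mark the sterol element, from -137 to -129, and CCAAT boxes, which here read ATTGG on the strand of the gene.
Hmgcs1, chr13:119690101-119690350, plus strand: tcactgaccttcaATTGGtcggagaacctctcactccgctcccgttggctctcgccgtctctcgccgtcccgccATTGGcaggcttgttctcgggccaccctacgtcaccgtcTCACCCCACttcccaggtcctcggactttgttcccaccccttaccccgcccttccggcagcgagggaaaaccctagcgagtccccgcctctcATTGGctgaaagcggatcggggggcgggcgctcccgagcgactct
Hmgcs1 had 243, 427 and 421 CPM in 2D-5days libraries, against 168, 159.8 and 58.1 CPM in 2D libraries (1.502 ± 0.29, adjusted p = 2.47e-04).

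Genes of fatty acid synthesis and lipid storage rose in 9 of 22 cases, with a median of 0.57. Lpin1, a phosphatidate phosphatase, had 69.5, 71.6 and 69.9 CPM in 2D-5days libraries, against 12.7, 11.6 and 14.6 CPM in 2D libraries (2.43 ± 0.19, adjusted p = 4.76e-09), with almost no spread in 2D-5days. Scd1, stearoyl-CoA desaturase, had 471, 550.1 and 544 CPM in 2D-5days libraries, against 236, 211 and 216 CPM in 2D libraries (1.24 ± 0.17). Acly, ATP citrate lyase, and Dgat1, the last enzyme of triglyceride synthesis, rose by 0.66 and 0.72 on the log2 scale.

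Lysosome and autophagy genes rose in 26 of 33 cases, with a median of 0.68, and in 17 cases against 2D replicate 3 alone (median 0.50). Gaa, acid α-glucosidase, had 582, 781 and 782 CPM in 2D-5days libraries, against 172, 174 and 261 CPM in 2D libraries (1.82 ± 0.15, adjusted p = 1.24e-08). Hexa, the α subunit of β-hexosaminidase, had 416, 462 and 458 CPM in 2D-5days libraries, against 142, 153 and 237 CPM in 2D libraries (1.33 ± 0.16, adjusted p = 1.21e-06). Map1lc3b, the LC3 protein of the autophagosome, had 315, 343 and 349 CPM in 2D-5days libraries, against 118, 125 and 139 CPM in 2D libraries (1.397 ± 0.11, adjusted p = 1.00e-08), and Neu1, a lysosomal sialidase, rose by 1.304 on the log2 scale. Macrophages are rich in lysosomes, and their summed markers were highest in replicate 1 of 2D-5days, where Gaa, Hexa and Map1lc3b were the lowest of the group. The part of macrophages in these changes was not tested. Without that library 25 lysosome genes rose (median 0.73), and the macrophage markers had a median of -1.08, against 0.04 with all libraries. Of the 21 macrophage markers, edgeR called 0 and DESeq2 0 in either direction, and 0 had an unadjusted p under 0.05. Their spread was wide, with standard errors of 0.82 for Lyz2 and 0.84 for Mpeg1 on the log2 scale. These counts therefore cannot tell whether macrophage RNA changed.

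NRF2 antioxidant and glutathione genes divided, with 6 of 27 higher and 11 lower, against 22.3% of all genes in each direction. The rises were thus at about the share of all genes, and the falls above it. Txn1, thioredoxin, had 119, 115 and 116 CPM in 2D-5days libraries, against 239.6, 269 and 216 CPM in 2D libraries (-1.05 ± 0.10, adjusted p = 1.35e-07), and Taldo1, transaldolase of the pentose phosphate pathway, had 127, 108 and 109 CPM in 2D-5days libraries, against 199.99, 226 and 265 CPM in 2D libraries (-1.01 ± 0.12, adjusted p = 1.11e-06). Gpx3, the secreted glutathione peroxidase, had 981, 1712 and 1646 CPM in 2D-5days libraries, against 259, 257 and 229.6 CPM in 2D libraries (2.54 ± 0.30, adjusted p = 1.22e-06), and Gstm1, a glutathione transferase, had 329, 278 and 277 CPM in 2D-5days libraries, against 106, 106 and 124 CPM in 2D libraries (1.396 ± 0.18), though Gstm1 has close paralogs with which it may share reads.

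Targets of ATF4, with genes of serine, folate and amino acid metabolism, were mostly lower or not called, with 9 of 25 lower, 1 higher and a median of -0.77. Psat1, phosphoserine aminotransferase of serine synthesis, had 18.4, 21.5 and 17.7 CPM in 2D-5days libraries, against 182, 176 and 124 CPM in 2D libraries (-3.06 ± 0.19, adjusted p = 2.26e-10). Mthfd1l and Shmt2, enzymes of mitochondrial folate metabolism, fell by 1.67 and 1.23 on the log2 scale. Mthfd2, of the same pathway, had 23.997, 32.3 and 29.7 CPM in 2D-5days libraries, against 103, 106 and 33.1 CPM in 2D libraries (-1.49 ± 0.37, adjusted p = 0.0022), so that 2D replicate 3 stood just above the 2D-5days libraries and the change against it alone was -0.17 and not called (adjusted p = 0.78). The 1 called member that was higher was Slc1a5, a glutamine transporter, with 277, 466 and 467 CPM in 2D-5days libraries, against 135, 133 and 68.6 CPM in 2D libraries (1.85 ± 0.26). The direction of the list as a whole rested on the 2D libraries. With replicates 1 and 2 only 14 fell and 1 rose (median -1.13), and against replicate 3 alone 4 fell and 8 rose (median 0.72).

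**Figure D3:**
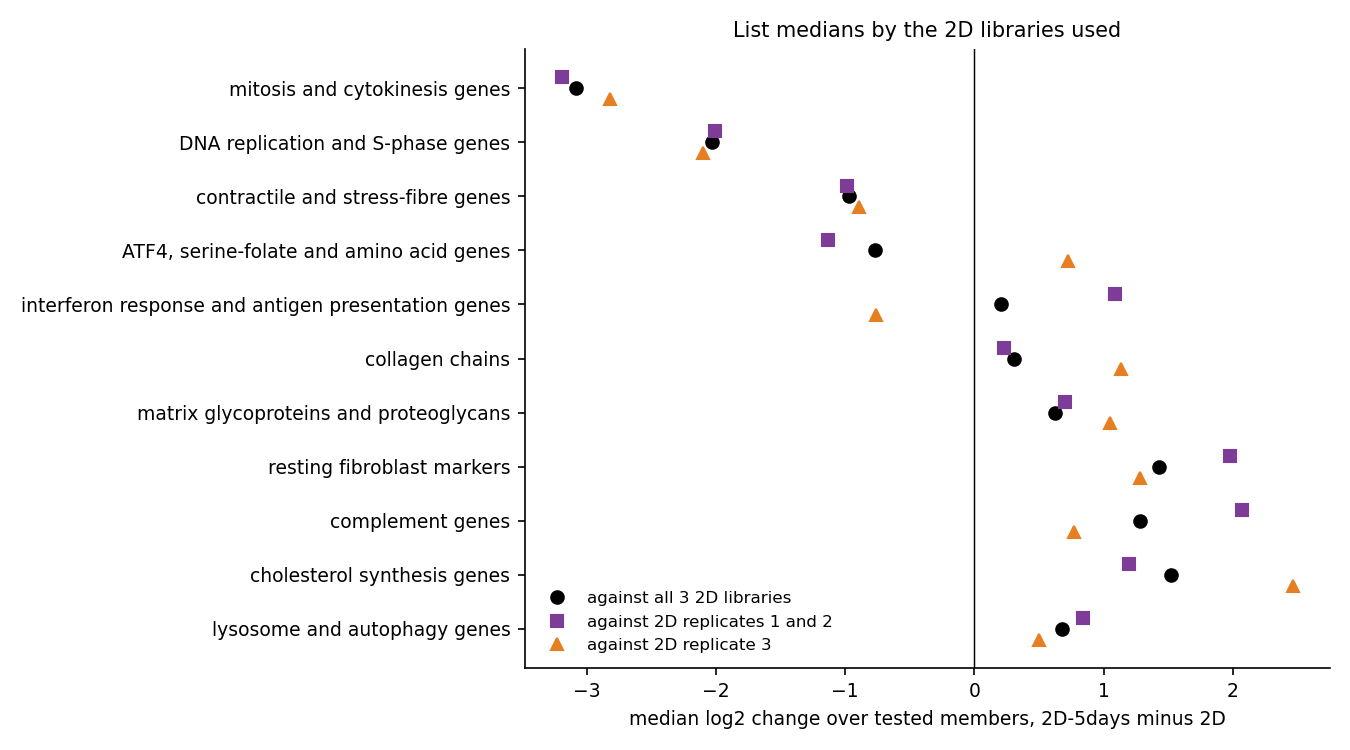
Median log2 change over the tested members of 11 gene lists (x axis, 2D-5days minus 2D) with all 3 2D libraries (black circles), with 2D replicates 1 and 2 (purple squares) and with 2D replicate 3 alone (orange triangles). Mitosis, replication and contractile medians stay below 0 and matrix, resting, complement, cholesterol and lysosome medians above 0 each way, while the ATF4 and interferon medians change sign with 2D replicate 3 alone.

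Lists of energy metabolism, translation and stress had counts near or under the shares of all genes, and these counts moved with the libraries used. Of 33 nuclear genes of oxidative phosphorylation, 7 rose and 7 fell, all by less than 0.5 on the log2 scale. The number higher was 3 to 9 with 1 library left out, at most 4 without 2D replicate 1 or 3 or without replicate 2 or 3 of 2D-5days, and against 2D replicate 3 alone 3 were higher and 2 lower. Ndufs1, a subunit of complex I, had 51.4, 46.4 and 51.1 CPM in 2D-5days libraries, against 67.3, 64.04 and 64.6 CPM in 2D libraries (-0.40 ± 0.07). Glycolysis and hypoxia genes rose in 3 and fell in 3 of 27 cases, and 1 rose without 2D replicate 1 or 3 or without replicate 2 or 3 of 2D-5days. Pkm, pyruvate kinase, and Gapdh fell by 0.54 and 0.42 on the log2 scale. Ribosomal protein genes fell in 9 of 30 cases, with a median of -0.18. Against 2D replicate 3 alone 1 fell and 1 rose (median 0.02), and 4 fell in a fit of the compared groups only. Rps2 had 839, 948 and 947 CPM in 2D-5days libraries, against 1461, 1655 and 1253 CPM in 2D libraries (-0.68 ± 0.10). Gapdh and the ribosomal protein genes have many near-identical pseudogenes, and the split of their reads is uncertain. Of 20 chaperones of the endoplasmic reticulum, 6 fell and 1 rose. The number lower was 3 without 2D replicate 1 or 2 or without 2D-5days replicate 2, and against 2D replicate 3 alone 0 fell and 2 rose (median 0.06). Of 22 immediate early transcription factors, 4 fell and 1 rose, with 2 lower against 2D replicate 3 alone and 2 higher when any 1 library of 2D-5days was left out. Fosl1, a partner of Jun, had 2.25, 0.129 and 0.791 CPM in 2D-5days libraries, against 6.49, 7.73 and 26.8 CPM in 2D libraries (-3.69 ± 0.63).

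The 3D pair carries the same 5-day label and shares no library with the flat pair. Single libraries stood apart in this pair too. In 3D the chi-square per degree of freedom was 240 and 185 between replicate 3 and replicates 1 and 2, against 12.95 between these. In 3D-5days it was 66 and 62.5 between replicate 1 and replicates 2 and 3, against 7.19 between these. Calls of 3D-5days against 3D were not refitted with libraries left out. In 3D-5days against 3D, 1460 genes (10.4%) were called, 634 higher (4.52%) and 826 lower (5.88%), and the difference between the changes, 2D-5days minus 2D against 3D-5days minus 3D, was called for 3583 genes (25.5%), 1858 more positive and 1725 more negative in the flat layer. Of the 6266 genes called in the flat layer, 589 (9.40%) were called with the same sign in 3D, which is 40.3% of the 3D calls, and 214 were called with opposite signs. The standard deviation of log2 changes over genes was 1.04 in the flat layer and 0.697 in 3D, and the changes had a Pearson correlation of 0.343 across genes, which are not independent replicates.

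**Figure D4:**
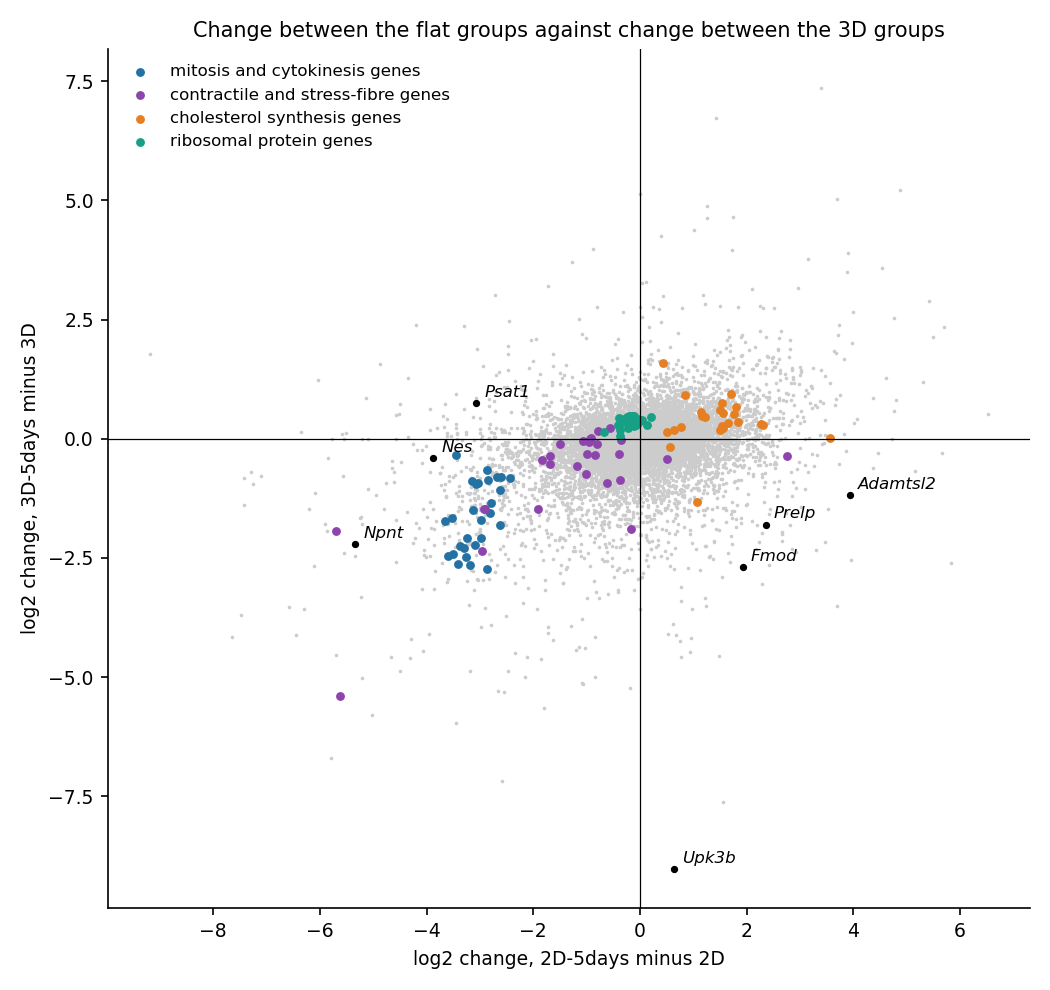
Log2 change of each tested gene in 2D-5days minus 2D (x axis) and in 3D-5days minus 3D (y axis), with all genes in grey and 4 gene lists in colour; 7 genes are named. Mitosis genes lie below 0 on both axes, cholesterol synthesis genes lie right of 0, most of them near 0 in 3D, and ribosomal protein genes lie above 0 in 3D.

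Mitosis genes were lower in both arrangements, and more so in the flat layer for some. In 3D 16 of 28 fell (median -1.68), and the difference was called negative for 12. Of all genes tested, 5.88% were called lower in 3D and 12.3% had a difference called negative, and the counts below are to be read against these shares. Mki67 changed by -2.62 ± 0.80 in 3D (adjusted p = 0.04), and the difference of -0.80 ± 1.05 was not called (adjusted p = 0.63). Its groups overlapped there, since 3D libraries ranged from 2.01 to 41.998 CPM and the highest 3D-5days library had 8.79 CPM. Levels of other mitosis genes named above were low in this pair. Ect2 had means of 1.02 CPM in 3D-5days and 3.33 CPM in 3D, and Kif20a 3.33 and 6.16 CPM in the same order. Of replication genes, 1 of 28 fell in 3D (median -0.36), and the difference was called negative for 20. Rrm1, for example, changed by 0.10 ± 0.24 in 3D, a difference of -2.07 ± 0.34 (adjusted p = 1.51e-04). Of contractile genes 6 fell in 3D, and the difference was called negative for 11, among them Tpm4, which changed by -0.92 ± 0.17 relative to 3D (adjusted p = 4.05e-04). Acta2 changed by -1.48 ± 0.41 in 3D and Tagln by -2.35 ± 0.36, and neither difference from the flat pair was called (adjusted p = 0.065 and 0.38).

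Lists with more rises than falls in the flat layer gave fewer rises in 3D, where 1 lysosome gene, 2 cholesterol genes and 2 resting markers rose, and 9 collagen chains fell. Fewer genes of any kind were called higher in 3D, with 4.52% of all genes against 22.3% in the flat layer. The 3D medians were 0.78 for resting markers, 0.34 for cholesterol genes, 0.21 for lysosome genes and -0.48 for collagen chains. The difference was called positive for 18 of 33 lysosome genes, 11 of 21 collagen chains, 9 of 24 cholesterol genes and 9 of 27 resting markers, against 13.2% of all genes. Tcf21 changed by -0.91 ± 0.32 in 3D (adjusted p = 0.07), a difference of 3.26 ± 0.46 (adjusted p = 3.20e-05). Smad6 rose in the flat layer and fell in 3D (-1.32 ± 0.20, adjusted p = 2.31e-04), a difference of 3.65 ± 0.28 (adjusted p = 2.35e-08). The same held for Fmod and Prelp, which changed by -2.69 ± 0.33 and -1.801 ± 0.31 in 3D (adjusted p = 4.24e-05 and 8.34e-04). Of ribosomal protein genes 19 of 30 rose in 3D (median 0.39), and the difference was called negative for 25, against 12.3% of all genes. Glycolysis genes rose in 9 cases in 3D, with 8 negative differences, and Pkm rose there (0.52 ± 0.13, adjusted p = 0.015). Members of the ATF4 list rose in 7 cases in 3D, with 12 negative differences, and Psat1 changed by 0.75 ± 0.18 there, a difference of -3.81 ± 0.26 (adjusted p = 3.11e-09).

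Levels of 8 genes in the other groups place the flat pair among them. They are described as means with SD (n = 3 libraries per group, 2 for 3D-2D) and were not tested across all groups. Mki67 was at 35.96 ± 9.26 CPM in 2D-5days, against 385 ± 39.3 CPM in 2D. It was at 326 ± 223, 313 ± 158 and 301 ± 162 CPM in flat cultures labelled 0.5, 8 and 64 kPa, whose libraries ranged from below to above the 2D libraries, and at 32.6 ± 1.19 CPM in the group labelled 3D-2D-2D, near the 2D-5days level. Scg2, at 235 ± 105 CPM in 2D-5days and 4.28 ± 2.29 CPM in 2D, was at 297 ± 3.67 CPM in 3D-2D-2D and below 30 CPM on average in the other groups. Nsdhl was also high in 2D-5days and 3D-2D-2D, with 138 ± 39.8 CPM in 2D-5days and 28.7 ± 11.8 CPM in 2D, 116 ± 2.44 CPM in 3D-2D-2D and less than in 2D elsewhere. Tcf21 was at 218 ± 68.1 CPM in 2D-5days, 43.05 ± 15.7 CPM in 2D and 203 ± 5.13 CPM in 3D-2D-2D, and Prelp at 1782 ± 505, 348 ± 80.7 and 2112 ± 52.6 CPM in the same groups. For Npnt and Psat1 the 3D-2D-2D means of 2.67 ± 0.533 and 28.2 ± 2.77 CPM were likewise close to the 2D-5days means of 3.99 ± 1.41 and 19.2 ± 1.98 CPM and far from the 2D means of 162 ± 4.47 and 161 ± 31.8 CPM. Acta2 was intermediate, at 871 ± 6.86 CPM in 3D-2D-2D, against 409.6 ± 9.98 CPM in 2D-5days and 3066 ± 995 CPM in 2D, and at 665 ± 381, 609 ± 328 and 626 ± 387 CPM in the 0.5, 8 and 64 kPa groups.

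**Figure D5:**
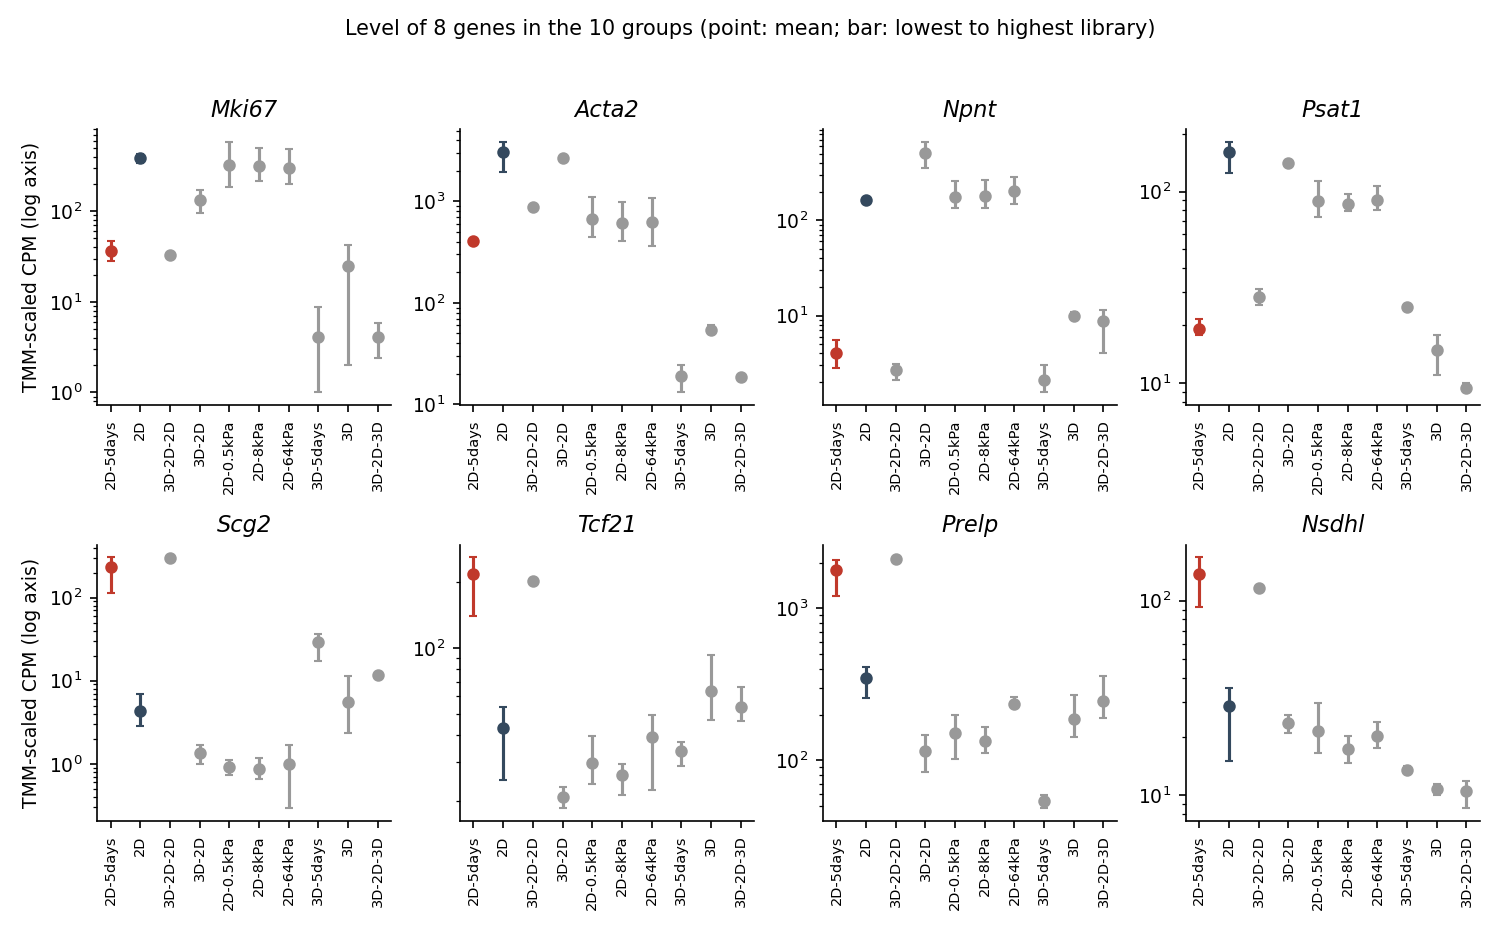
Level of 8 genes in TMM-scaled CPM on a log axis in the 10 groups, with 2D-5days in red, 2D in blue and the other groups in grey (point, mean; bar, lowest to highest library). The 3D-2D-2D group lies near 2D-5days and away from 2D for 7 of the genes and in between for Acta2.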

How the data were processed

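RNA from mouse cardiac fibroblasts was sequenced in 29 libraries of 10 groups, and 2 ATAC-seq libraries of the series were not analysed here. The table the authors deposited holds raw counts, on 24421 gene lines, and 5 summary lines that were left out of library sizes and tests. In 27 lines the symbol reads as a date. Per the submitters' processing notes, TopHat, Bowtie, HTSeq and MACS2 were used with the mm10 build, in roles that are not stated there. Whether counting used strand is not given in the sources used here, so that overlapping and antisense genes cannot be told apart.

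Counts were scaled by TMM factors, filtered with filterByExpr, and fitted in 1 model of all 10 groups with edgeR's quasi-likelihood test (edgeR 4.0.16, limma 3.58.1, R 4.3.3). The spread is shared by all groups. Contrasts were 2D-5days minus 2D, 3D-5days minus 3D, and the difference of these. All adjusted p-values are Benjamini-Hochberg values over all genes tested, and a gene was called at 0.05. Log2 CPM used a prior count of 2. Reads reported as not unique were 16.2% to 18.5% for 2D-5days, against 14.1% to 16.0% for 2D, and those outside genes were 7.55% to 10.0% for 2D-5days, against 6.51% to 7.20% for 2D. The fit was tested on simulated data first.

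The groups and 40 gene lists (872 of 874 symbols in the table, 821 tested) were chosen with earlier results of these data known. Genes were named by a rule: among genes that were called, averaged a log2 CPM of 3 or more and did not overlap between the groups, the 12 largest rises, the 12 largest falls and the 6 largest differences of each sign from 3D, plus up to 4 called members of each list and a panel of 19 fibroblast genes. The text gives part of these. Mcm5, Myl9, Hmgcs1, Mylk, Meox1 and Rn45s fall outside the rule and were chosen after their values were seen. Promoter windows were taken by symbol from RefSeq (GRCm38.p6).

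Alternatives were DESeq2 1.42.0, RLE size factors, library totals, no filter, a filter of 1 CPM in 3 libraries, a fit of the compared groups only, the same with a replicate block, each library left out, 2D replicate 3 as the only 2D library, and the most alike libraries summed.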

Additional observations from a re-analysis of the deposited data

Results flagged for a closer look

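The change in the flat layer differed from the change in 3D for 3583 genes by edgeR's test of the difference (2D-5days minus 2D against 3D-5days minus 3D), and 12 named genes with the largest differences were picked by that test. On the log2 scale, the differences in favour of the flat layer were 9.65 for Upk3b, a uroplakin of the mesothelium, 5.11 for Adamtsl2, 4.62 for Pdlim3, 4.61 for Fmod, 4.46 for Art4 and 4.16 for Prelp. Those against it were -3.81 for Psat1, -3.51 for Galnt18, -3.46 for Nes, -3.13 for Npnt, -3.01 for Slc7a11 and -2.88 for Mthfd2.

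Upk3b had no reads in any of the 3 3D-5days libraries, against 31, 48 and 240 reads in the 3D libraries, so that its fitted value depends on the prior count. With a floor of 3 counts per library, its level in 3D-5days was at least 13.8-fold below the mean of 3D. That mean rested largely on 3D replicate 3, with 8.33 CPM, against 1.57 and 2.29 CPM in 3D replicates 1 and 2. In the flat layer Upk3b had 28.3, 18.3 and 21.02 CPM in 2D-5days libraries, against 16.9, 16.96 and 9.95 CPM in 2D libraries, a log2 change of 0.63 ± 0.46 that was not called (adjusted p = 0.28).

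For Prelp and Fmod the pairs moved in opposite directions. Prelp had 58.8, 48.5 and 54.99 CPM in 3D-5days libraries, against 143, 153 and 269 CPM in 3D libraries, and Fmod had 12.01, 9.85 and 11.3 CPM in 3D-5days libraries, against 76.02, 78.6 and 58.9 CPM in 3D libraries. Both genes were higher in 2D-5days than in 2D. Psat1 had 24.7, 25.7 and 24.7 CPM in 3D-5days libraries, against 17.8, 16.1 and 11.002 CPM in 3D libraries, where it rose while it fell in the flat layer. Adamtsl2 had 9.56, 45.99 and 45.3 CPM in 3D-5days libraries, against 69.4, 80.1 and 79.7 CPM in 3D libraries, with 1 library of 3D-5days well below the others. In the flat layer the calls of Pdlim3, Mthfd2 and Slc7a11 rested on part of the libraries. Pdlim3 changed by 2.67 and by 2.06 without 2D replicate 3 (adjusted p = 0.0504), while Mthfd2 and Slc7a11 changed by -0.17 and -1.299 against 2D replicate 3 alone (adjusted p = 0.78 and 0.14).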

How the results depend on the processing

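The count of genes called between 2D-5days and 2D, 6266, stayed within 1.5 times under DESeq2 (6361), RLE size factors (6258), library totals (6201), no filter (5849), a filter of 1 CPM in 3 libraries (6253), a fit of the compared groups only (4596), 2D replicate 3 alone (4764) and the most alike libraries summed (4581), and ranged from 5074 to 6436 with 1 library left out. With a replicate block in the fit of the compared groups it was 3630. Same-numbered libraries of the groups did not deviate together (correlations -0.044, 0.069 and -0.059 across genes), so the numbers were not taken as pairs. The count of differences from 3D, 3583, ranged from 2939 to 3886 with 1 library left out and was 3864 under DESeq2, but 2156 with only the groups compared and 2420 with the replicate block.

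Of 134 genes followed, 130 were called, and 114 kept call and sign under every alternative. The change of Postn was 0.70 and that of Pdgfra -0.040 against 2D replicate 3 alone, the opposite of their signs with all libraries (-0.23 and 0.52). The cause was not tested. Calls were lost for 8 genes against 2D replicate 3 alone, for 9 with the replicate block and for 6 with the most alike libraries summed. Depth, at 8509987 counts or more in every library of the pair, limits genes of a few CPM most.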
